A study of Mus musculus with 4 samples.

Results

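RUVBL2 peaks that lay away from protein-coding genes in mouse hypothalamus were described. Peaks of both ChIP libraries were joined into 7171 intervals wherever they overlapped by at least 1 bp, and 7168 of these lay on assembled chromosomes. An interval was kept when its midpoint was outside every protein-coding gene body and more than 3 kb from every protein-coding gene end in RefSeq's table of GRCm38.p6. This left 262 intervals, 3.66% of the 7168 (95% interval 3.23 to 4.12): 81 held peaks of both lists, 29 of replicate 1 only and 152 of replicate 2 only.

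RUVBL2 was mapped by chromatin immunoprecipitation and sequencing (ChIP-seq), in which DNA crosslinked to a protein is pulled down with an antibody and sequenced. All libraries came from the hypothalamus of wild-type (WT) male C57BL/J mice aged 8 weeks, with 2 RUVBL2 ChIP libraries and 2 input libraries, and no treatment or mutant group. The labels do not say whether replicates 1 and 2 were separate animals or pools, so the spread between them may be technical, and the input libraries' own values were not analysed here. Whole hypothalamus holds many cell types, and peaks carry no information on which of them bound.

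RUVBL2 is an AAA+ ATPase that works in a ring with RUVBL1. The ring is a core of the INO80, SRCAP and TIP60 remodelling complexes, which exchange histone variants and acetylate histones at promoters, and it also serves the R2TP chaperone. Outside protein-coding genes, a genome holds promoters of long non-coding RNAs (lncRNAs), small RNAs that RNA polymerase II or III transcribes, and distal elements such as enhancers.

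The first sequences shown are promoter windows of 5 lncRNAs, each of which held a summit of an interval found in both lists. Each window runs from 250 bases before to 50 bases after a start site of RefSeq (GRCm38.p6). They are shown because lncRNA ends were the most frequent annotation of the intervals, and because the windows differ in which motifs they hold. Capitals mark matches, on either strand, to the 7 motifs listed with their shares further on.
Chaserr, chr7:73558346-73558645, minus strand: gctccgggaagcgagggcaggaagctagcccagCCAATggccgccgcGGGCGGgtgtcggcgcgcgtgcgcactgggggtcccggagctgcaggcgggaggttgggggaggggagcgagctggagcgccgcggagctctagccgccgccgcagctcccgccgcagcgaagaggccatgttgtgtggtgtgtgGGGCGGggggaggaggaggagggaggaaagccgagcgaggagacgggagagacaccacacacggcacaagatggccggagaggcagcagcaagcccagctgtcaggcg
Snhg11, chr2:158375463-158375762, plus strand: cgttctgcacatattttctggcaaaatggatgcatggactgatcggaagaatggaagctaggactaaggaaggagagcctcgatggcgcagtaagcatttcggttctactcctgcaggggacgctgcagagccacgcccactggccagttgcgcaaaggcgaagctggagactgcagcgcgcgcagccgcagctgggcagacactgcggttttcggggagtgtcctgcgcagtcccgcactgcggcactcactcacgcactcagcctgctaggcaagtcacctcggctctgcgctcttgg
E130102H24Rik, chr4:101356199-101356498, minus strand: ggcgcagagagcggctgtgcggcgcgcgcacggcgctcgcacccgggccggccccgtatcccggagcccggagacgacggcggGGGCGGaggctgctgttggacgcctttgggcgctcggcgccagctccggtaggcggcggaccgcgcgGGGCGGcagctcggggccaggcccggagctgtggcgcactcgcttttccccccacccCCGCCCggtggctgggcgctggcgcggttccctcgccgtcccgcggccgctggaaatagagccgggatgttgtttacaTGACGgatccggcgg
1810044D09Rik, chr6:91440737-91441036, plus strand: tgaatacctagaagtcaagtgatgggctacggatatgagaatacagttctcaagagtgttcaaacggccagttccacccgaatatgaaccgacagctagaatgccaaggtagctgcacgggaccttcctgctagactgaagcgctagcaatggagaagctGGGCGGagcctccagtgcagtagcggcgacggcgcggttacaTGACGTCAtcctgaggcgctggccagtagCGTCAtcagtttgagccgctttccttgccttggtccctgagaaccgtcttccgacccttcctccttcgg
Lncpint, chr6:31218425-31218724, minus strand: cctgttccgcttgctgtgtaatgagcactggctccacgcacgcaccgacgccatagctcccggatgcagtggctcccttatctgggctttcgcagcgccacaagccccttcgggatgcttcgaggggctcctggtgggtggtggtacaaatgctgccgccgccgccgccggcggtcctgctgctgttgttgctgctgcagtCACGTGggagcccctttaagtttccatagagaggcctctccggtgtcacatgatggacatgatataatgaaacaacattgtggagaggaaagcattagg
The Chaserr window held a CCAAT box and 2 GC boxes. The 1810044D09Rik window held a GC box and 3 matches to the cyclic AMP response element core, a pair of which overlapped in a single palindrome. The Snhg11 window held none of the 7 motifs, and the Lncpint window held an E-box only.

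A selection of mature microRNAs made from loci within 10 kb of an interval found in both lists follows, from RefSeq. They are shown since several of the best-ranked intervals lay beside microRNA genes. In all, 11 microRNA genes lay that near. Mir101a, Mir146b, Mir3089 and Gm51268 (miR-9b) are not shown, nor are the other arms of the hairpins. Capitals mark the seed, bases 2 to 8, which pairs with target messenger RNAs.
let-7i-5p: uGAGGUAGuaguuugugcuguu
let-7a-5p: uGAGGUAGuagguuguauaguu
let-7f-5p: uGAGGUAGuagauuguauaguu
let-7d-5p: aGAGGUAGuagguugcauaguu
miR-9-5p: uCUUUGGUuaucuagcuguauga
miR-22-3p: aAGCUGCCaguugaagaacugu
miR-760-3p: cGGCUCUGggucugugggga
let-7i, let-7a, let-7f and let-7d share the seed GAGGUAG and came from 2 places: an interval at Mirlet7i on chromosome 10, and an interval beside the Mirlet7a-1, Mirlet7f-1 and Mirlet7d genes on chromosome 13. miR-9, miR-22 and miR-760 each have a seed of their own.

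The share of intervals away from protein-coding genes that were in both lists was 30.9% (81 of 262, 95% interval 25.4 to 36.9), beside 44.5% (2784 of 6260) of intervals at a protein-coding gene end, 37.9% (245 of 646) of those inside a gene body and 43.4% of all. These exact Clopper-Pearson intervals cover counting error only. Read by list, replicate 1 had 112 such peaks, of which 83 (74.1%, 65.0 to 81.9) overlapped a peak of replicate 2, beside 80.1% of all its peaks. Replicate 2 had 234, of which 82 (35.0%, 28.9 to 41.5) overlapped a peak of replicate 1, beside 48.8% of all its peaks and 50% of its gene-end peaks. The 95% interval of the outside peaks of replicate 2 lay below that of its gene-end peaks (48.7 to 51.3), and in replicate 1 it overlapped that of its gene-end peaks (79.3 to 81.9). The difference was not tested.

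Peaks of smaller p were found again in larger shares. In replicate 1, split into 4 equal groups by p, the group with the smallest p had 26 of 27 outside peaks found in the other list and the group with the largest p had 16 of 35 (45.7%, 28.8 to 63.4). Gene-end peaks of that last group were found again in 64.8% of cases (61.5 to 68.0). In replicate 2 the same groups gave 32 of 45 (71.1%) and 16 of 91 (17.6%, 10.4 to 27.0), beside 80.1% and 26.9% of gene-end peaks. In replicate 2, the group with the largest p held 91 of 234 outside peaks and 1338 of 5594 gene-end peaks. How far the p-values set the shares over all peaks was not tested.

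**Figure D1:**
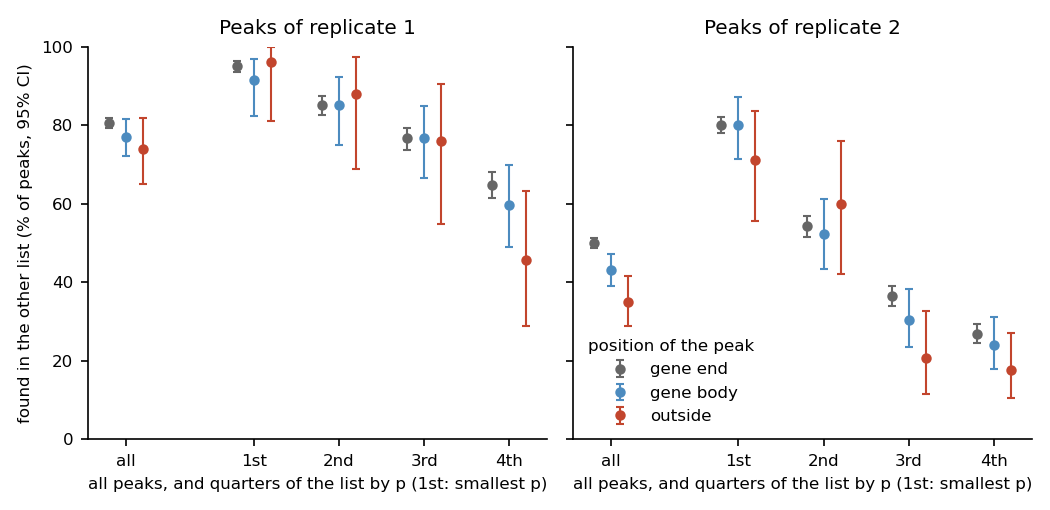
Share of peaks of each list overlapped by a peak of the other list (y axis, percent of peaks), for all peaks and for 4 equal groups of the list by p (x axis), at gene ends, in gene bodies and outside protein-coding genes. Points are shares and bars exact 95% intervals; outside peaks reach 74.1% in replicate 1 and 35.0% in replicate 2 over all peaks, and the share falls from the smallest to the largest p in every class.

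Median enrichment was lower than in each list as a whole, and the difference was not tested. The fold over background is the authors' own value for each peak, and the pileup is the number of reads over its summit, recovered from the fold and the p-value. The median recovered background over all peaks of replicate 1, 2.25, was near the lowest of that list, 2.24. Folds at that lowest background differ by their read counts alone. For replicate 2 the median was 3.52 and the lowest 2.65. In replicate 1, outside peaks reached 4.62-fold over 15.5 reads at the median, beside 4.93-fold over 16 reads for all peaks. In replicate 2 the medians were 4.39-fold over 19 reads, beside 4.74-fold over 22. The median −log10 p of outside peaks was 7.78 in replicate 1, beside 8.62 for all peaks, and 8.45 in replicate 2, beside 10.3. Outside peaks found in both lists had higher medians than those found in a single list: 4.74 against 4.01 in replicate 1 and 5.22 against 4.11 in replicate 2. Their widths differed in the same way, with medians of 471 against 307 bp and of 653.5 against 413.5 bp. Among the 1000 peaks of smallest p, 28 in replicate 1 and 35 in replicate 2 were outside protein-coding genes. Over the whole lists such peaks were 112 of 3941 in replicate 1 and 234 of 6401 in replicate 2. Among the 100 peaks of smallest p they were 4 in replicate 1 and 5 in replicate 2.

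Many of the intervals lay beside a non-coding gene. The midpoint was within 3 kb of the end of an annotated lncRNA, small RNA or pseudogene in 143 of 262 (54.6%, 48.3 to 60.7), beside 22.3% of all intervals, 21.3% of gene-end intervals and 19.2% of gene-body intervals. Without pseudogenes the share was 128 of 262 (48.9%, 42.7 to 55.1), and with the limit at 1 kb it was 44.7%. The rule itself removes intervals next to protein-coding genes, and the difference in these shares was not tested. In both lists the share was 52 of 81 (64.2%, 52.8 to 74.6), in replicate 1 only 12 of 29 (41.4%, 23.5 to 61.1) and in replicate 2 only 79 of 152 (52.0%, 43.7 to 60.1). Distances here and further on run from an interval's midpoint to the nearer gene end unless a summit is named. Sorted by the nearest such end, 112 intervals were at a lncRNA, 16 at a pseudogene, 9 at a tRNA gene, 5 at a microRNA gene and 1 at a small nuclear RNA gene. A further 16 were inside a non-coding gene far from its ends, and 103 (39.3%) had no annotated gene within 3 kb. Intervals at a lncRNA were in both lists in 42 of 112 cases (37.5%, 28.5 to 47.1) and those with no gene nearby in 23 of 103 (22.3%, 14.7 to 31.6). The share was 6 of 16 (37.5%) at pseudogene ends and also 6 of 16 inside non-coding genes. It was 2 of 5 at microRNA genes and 2 of 9 (22.2%) at tRNA genes, and these differences were not tested.

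lncRNA start sites held many of these summits. A lncRNA end of any kind was within 3 kb of 119 intervals (45.4%), beside 17.8% of all intervals. With chromosome 18 left out, since its promoters were not used here, the mean summit was within 1 kb of a lncRNA start in 67 of 250 intervals (26.8%, 21.4 to 32.7), beside 10.7% of all intervals. The share was 29 of 79 (36.7%) for intervals in both lists, 4 of 28 (14.3%) for replicate 1 only and 34 of 143 (23.8%) for replicate 2 only. Of the 67 summits, 42 lay downstream of the start, and the median distance was 199 bp. In both lists alone, 18 of 29 lay downstream, at a median distance of 171 bp.

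**Figure D2:**
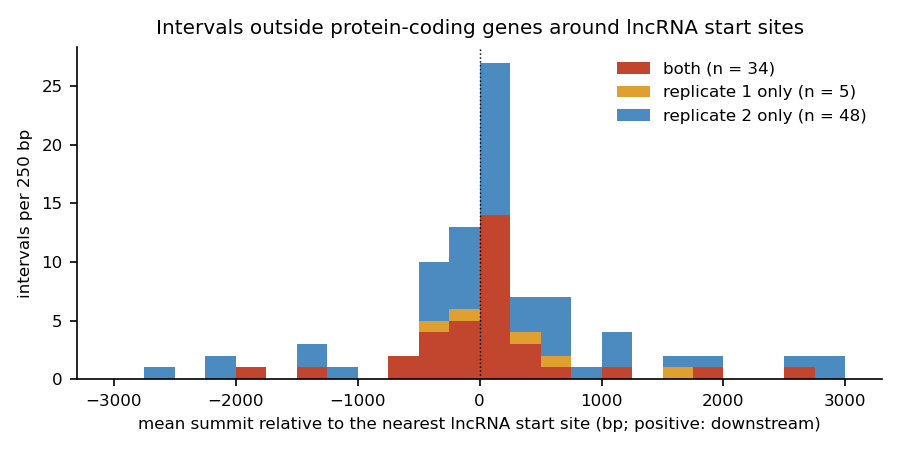
Number of intervals outside protein-coding genes (y axis, per 250 bp) by the distance of their mean summit from the nearest lncRNA start site (x axis, bp, positive downstream), coloured by the lists that hold them. The 67 intervals within 1000 bp crowd around the start, with 42 of them downstream, in both lists as well as in replicate 2 only.

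The lncRNA windows under these summits were rich in CpG. A total of 26 windows held a summit of an outside interval, 17 of them from intervals in both lists. The windows of 1810044D09Rik and 4930471M09Rik overlap, hold summits of the same interval and hold the same motif matches, so this place enters each share of windows as 2 windows. Their median GC content was 61.2% and their median ratio of observed to expected CpG was 0.827, beside 48.3% and 0.245 over all 11588 lncRNA windows. The ratio was above 0.6, the usual limit for a CpG island, in 23 of 26 windows (88.5%), beside 14.0% of all lncRNA windows and 93.9% of the 2195 protein-coding windows that held a summit. Windows from both lists gave 15 of 17 (88.2%). Snhg17 and C920006O11Rik, with 47.3% and 43.0% GC, had the least GC of the 26 windows, and Gm34507, with 79.3%, had the most.

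**Figure D3:**
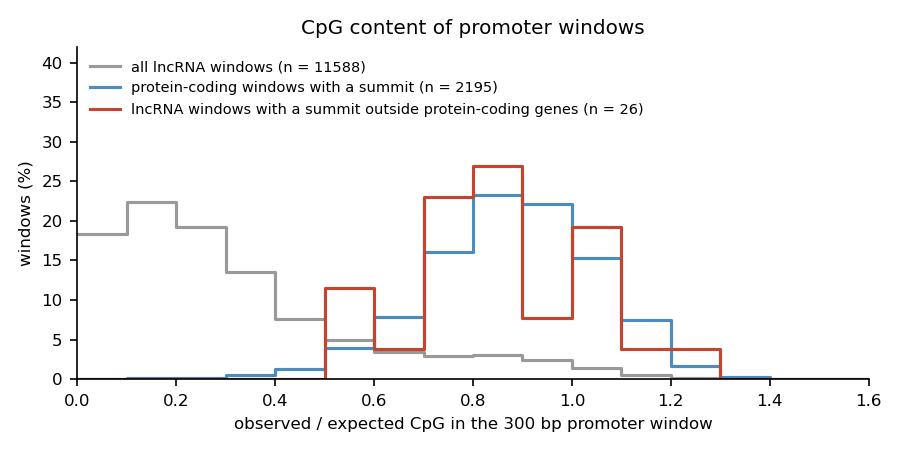
Distribution of the observed to expected CpG ratio (x axis) over promoter windows (y axis, percent of windows in each step of 0.1) for all lncRNA windows, protein-coding windows with a summit and the 26 lncRNA windows with a summit outside protein-coding genes. The 26 windows lie with the protein-coding windows, around a median of 0.827, and most lncRNA windows lie below 0.6.

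Motif letters were counted in the same windows on both strands, as a description. The GC box GGGCGG was in 18 of 26 windows (69.2%), beside 16.3% of all lncRNA windows, 35.7% of all 32851 windows and 71.4% of protein-coding windows with a summit. TGACG, the core of the cyclic AMP response element, was in 14 of 26 (53.8%), beside 15.7% of lncRNA windows, 20.8% of all windows and 41.1% of protein-coding windows with a summit, and in 6 of the 17 windows from both lists (35.3%). The E-box CACGTG was in 5 of 26 (19.2%), beside 7.15% of all windows and 10.2% of protein-coding windows with a summit. The ETS motif CCGGAAG was in 3 (11.5%), beside 8.86% and 28.0%, and the YY1 motif AAGATGGCG in 2 (7.69%), beside 1.40% and 6.20%. The CCAAT box was in 6 (23.1%), beside 37.4% and 27.0%, and TATAAA in 2 (7.69%), beside 13.6% and 3.60%. A palindromic NRF1 motif, also searched, was in 0 of the 26, beside 0.971% and 2.14%. The CpG-bearing motifs were read in windows that were chosen by their summits and are rich in CpG, and how far base composition sets these shares was not tested.

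By the worse of its ranks in both lists, the leading interval was at Rn18s-rs5, a copy related to 18S ribosomal RNA, at chr17:39843129-39848812. It had a pileup of 321 reads over a background of 105 in replicate 1 and of 865 over 127 in replicate 2. These backgrounds were 46.7 and 36.1 times the median of their lists. Its fold was 3.03 (95% Poisson interval of the pileup, 2.71 to 3.38) in replicate 1 and 6.76 (6.32 to 7.22) in replicate 2. A near-identical sequence is present in many copies in the genome, and the sources used here do not give how reads of such copies were placed.

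lncRNA genes made up most of the next ranks. Malat1, an abundant nuclear lncRNA of speckles, had an interval over its start (chr19:5802593-5804039), with the midpoint 644 bp from the gene and the mean summit upstream of the start. It was enriched 8.06-fold (5.62 to 11.2) in replicate 1 and 11.7-fold (8.99 to 14.9) in replicate 2. B330016D10Rik (chr4:141545916-141547171), whose nearest protein-coding gene Spen lay 7899 bp away, had folds of 9.01 (6.25 to 12.6) and 9.28 (6.82 to 12.3). 1700012D14Rik (chr7:111122094-111122938) had 6.66 (4.54 to 9.47) and 15.0 (11.4 to 19.5). Each fold is set against the background of its own list, so values of the lists stand side by side and were not compared.

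Chaserr, a lncRNA known to restrain its neighbour Chd2, a chromatin remodeller, had an interval at its start (chr7:73557792-73558964). Its fold was 9.56 (6.55 to 13.5) in replicate 1 and 7.52 (5.25 to 10.5) in replicate 2. Snhg11, a snoRNA host transcript that is prominent in neurons, had an interval at chr2:158375361-158376064 with summits 72 and 64 bp upstream of its start. Its fold was 6.78 (4.32 to 10.2) in replicate 1 and 8.85 (6.36 to 12.0) in replicate 2. E130102H24Rik (chr4:101355856-101357246) had 7.49 and 11.0, Gm38882 (chr6:117879012-117880557) 7.12 and 8.69, and 2310015A10Rik (chr12:80132280-80132941) 6.16 and 9.79.

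The remaining lncRNAs of the 20 best intervals had folds between 4.72 and 9.08. Gm10433 had 4.72 (3.19 to 6.75) in replicate 1 and 9.08 (6.96 to 11.6) in replicate 2. An interval inside the lncRNA Zmiz1os1, 79455 bp upstream of Zmiz1, had 7.40 and 7.68. Its mean summit lay 127 bp downstream of a Zmiz1os1 start site. The nearest non-coding gene end, that of Gm41113, was 857 bp from its midpoint. Gm34507, 85870 bp upstream of Arid1b, which encodes a subunit of the BAF remodelling complex, had 8.32 and 7.68. Oip5os1, the lncRNA also known as Cyrano, which drives the breakdown of miR-7, had 5.95 (3.70 to 9.13) and 5.89 (4.17 to 8.10). Magef1, which the table lists as a transcribed pseudogene, had 5.54 and 7.62.

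**Figure D4:**
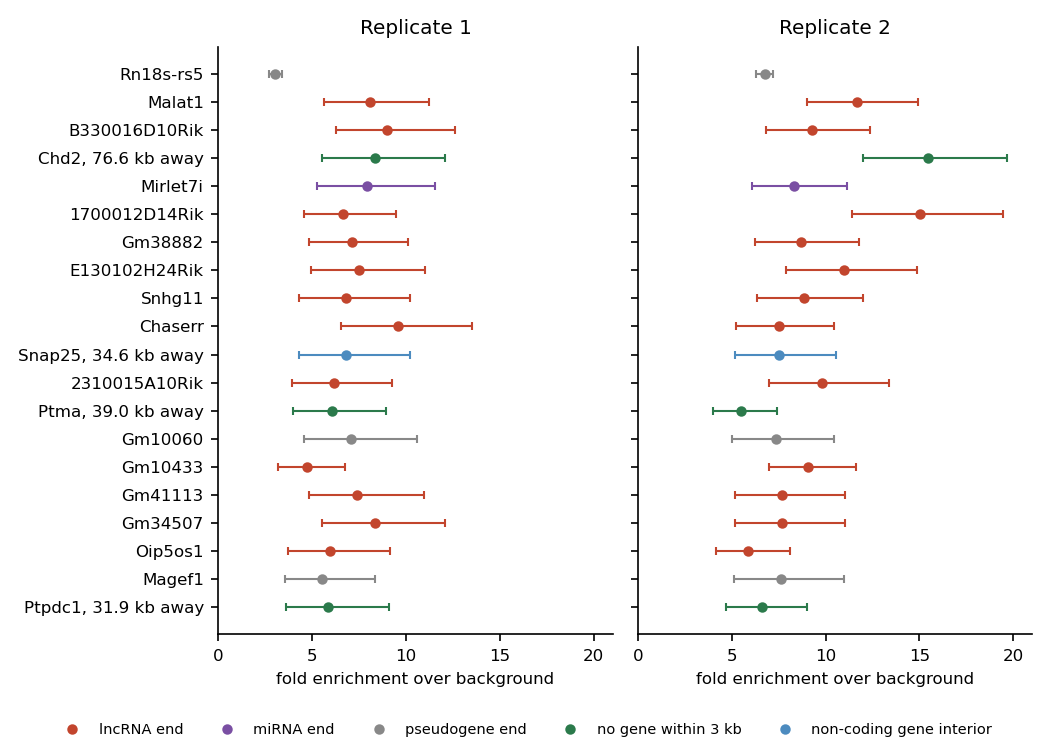
Fold enrichment over background (x axis) of the 20 best-ranked intervals found in both lists, by replicate, in the order of the worse of their ranks, with 95% Poisson intervals of the pileup as bars. Apart from Rn18s-rs5, at 3.03 in replicate 1, the intervals sit between 4.72 and 9.56 in replicate 1 and between 5.51 and 15.5 in replicate 2; colours give the nearest annotation.

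Of 36 lncRNA names chosen for their known roles, Cyrano was a second name of Oip5os1, and the other 35 were in the table. Of these 35, 12 had any interval (34.3%) and 9 had one outside protein-coding genes, 4 of them in both lists. Over all 12639 lncRNA genes in the table, 1281 had any interval (10.1%) and 148 had one outside protein-coding genes, 57 of them in both lists. Beside Malat1 and Oip5os1, these 4 were Lncpint and Mir22hg. Lncpint, a p53-induced lncRNA, had an interval at its start with folds of 4.62 and 3.03, and another 1724 bp inside with 3.70 and 5.04. Mir22hg, the host of miR-22, had 4.62 (2.67 to 7.55) and 3.60 (2.26 to 5.46). Intervals in a single list were at Neat1, the paraspeckle lncRNA (replicate 2, 4.23), Meg3, the maternally expressed imprinted lncRNA (replicate 1, 3.70), and Mir124a-1hg and Mir124-2hg (replicate 2, 4.39 and 4.11). Miat, a neuronal nuclear lncRNA, had separate intervals in replicate 1 (3.70) and in replicate 2 (3.03), which did not overlap. Single-list folds at these genes rested on few reads, and the interval of Meg3 ran from 2.00 to 6.37. Xist, H19, Kcnq1ot1, Rian, Rmst and Norad held none.

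Of 21 snoRNA host genes, whose introns carry guides for ribosomal RNA modification, 15 had any interval (71.4%, beside the 10.1% of all lncRNA genes), and 5 had one away from protein-coding genes. Snhg11, Snhg17 and Dancr were in both lists, Dancr with 6.40 (4.02 to 9.71) and 7.35 (4.90 to 10.6) and Snhg17 with 4.62 (2.67 to 7.55) and 5.75 (3.80 to 8.39). Snhg15 (5.74) and Snhg5 (3.54) were in replicate 2 only. The summits of Snhg17 and Dancr lay inside the gene near its start.

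MicroRNA genes were within 3 kb of 8 intervals (3.05% of the 262), beside 1.53% of all intervals. Mirlet7i, a let-7 gene of the family that promotes differentiation, lay within its interval (chr10:122985295-122986669), whose midpoint was 258 bp from the hairpin. The interval reached 7.92-fold (5.23 to 11.5) in replicate 1 and 8.33-fold (6.11 to 11.1) in replicate 2. An interval 7729 bp upstream of Mirlet7a-1 (chr13:48545435-48546567) had 5.86 (3.60 to 9.08) and 6.59 (4.69 to 9.02). Both places carry microRNAs of the shared seed shown above. The interval over Mir760, with its midpoint 24 bp from the hairpin, had 8.00 (5.28 to 11.7) and 6.69 (4.46 to 9.69).

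An interval 7766 bp from Mir9-2, a source of the brain microRNA miR-9, had 4.32 and 4.20 and was also in both lists. The 3 loci of miR-124, the main microRNA of neurons, each held an interval in replicate 2 only, with folds of 4.39 beside Mir124a-1, 4.11 beside Mir124a-2 and 4.66 beside Mir124a-3. Mir125b-2 had an interval in replicate 2 only (2.93) 527657 bp from the nearest protein-coding gene, the farthest of all 262. Of the 1228 microRNA genes in the gene table, 111 had any interval (9.04%), beside 10.1% of all lncRNA genes. Among these 1228 genes, 9 were inside or within 3 kb of an outside interval, 3 of them in both lists.

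tRNA genes, which RNA polymerase III transcribes, were within 3 kb of 15 intervals (5.73% of the 262), beside 0.6% of all intervals. They took in 19 of the 403 tRNA genes in the table. Any interval was held by 49 of the 403 (12.2%), beside 10.1% of all lncRNA genes. Intervals in both lists lay beside n-TWcca5 (folds of 4.63 and 5.65) and n-TGgcc3 (3.82 and 4.26), and the Mir760 interval lay within 3 kb of n-TRtct2. The other 12 were in replicate 2 only. The highest of these was beside n-TNgtt14 at 7.41 (4.93 to 10.7), and the rest ran from 3.23 to 5.56. Of 9 short structural RNAs, Rn7sk, which restrains the elongation factor P-TEFb, had an interval outside protein-coding genes in both lists, with 5.24 (3.13 to 8.32) and 4.28 (2.80 to 6.29) and summits beside the gene. The replicate 1 summit of the Rn7sk interval also lay 25 bp downstream of a start site of the lncRNA C920006O11Rik. Which of these genes the interval belongs to was not tested. Of 62 ribosomal RNA genes in the table, 0 held an interval.

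Pseudogene ends accounted for 16 intervals, 6 of them in both lists. Between 19784622 and 20558035 on chromosome 8 lay 5 intervals, each more than 100 kb from the next, with 3 of them at pseudogene ends. Gm10060 had folds of 7.09 (4.56 to 10.6) and 7.35 (5.01 to 10.5) there, and Gm20584 had 5.14 and 6.03. Gm20583 was in replicate 1 only with 6.47 (4.07 to 9.83) and was the best interval of that class. Near-identical copies may share reads, so the assignment of these intervals to single copies is uncertain.

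The 23 intervals of both lists with no annotated gene within 3 kb were led by the interval beside Chd2 (chr7:73617675-73618982). It lay 76582 bp from Chd2, past Chaserr, and 9588 bp from the lncRNA Gm30149, and had 8.32 (5.54 to 12.1) in replicate 1 and 15.5 (12.0 to 19.7) in replicate 2. In replicate 2 it was the highest fold among all outside peaks and had rank 19 in the list. An interval inside the body of Chd2 had 6.13 and 8.85, another at its end was in replicate 2 only with 3.82, and another 53.6 kb away was in replicate 2 only with 4.47.

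Upstream of Ptma, which encodes prothymosin alpha, a histone-binding acidic protein, 3 outside intervals were in both lists. They lay 22085 bp from the gene with folds of 5.35 and 3.29, 38962 bp away with 6.07 and 5.51, and at −84.3 kb with 4.62 and 7.39. The last of these was 754 bp from an end of the lncRNA Gm32700, and its nearest protein-coding gene was Tex44, 14230 bp away. Another outside interval, at −92.1 kb and inside Gm32700, was in replicate 2 only with 3.23 and lay 6379 bp from Tex44. The interval at the end of Ptma itself had 9.12 and 7.44, which lay above every upstream fold in replicate 1 and next to the highest upstream fold, 7.39, in replicate 2.

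**Figure D5:**
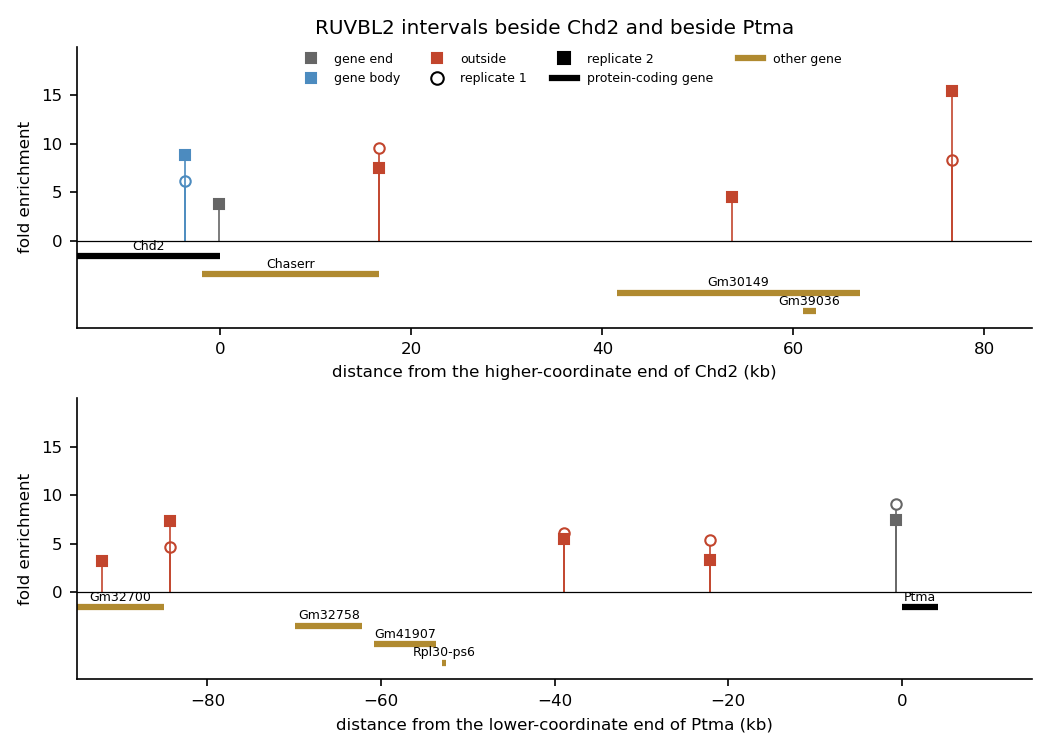
Folds of all intervals (y axis) beside Chd2 and Ptma against distance from the end of the gene (x axis, kb), with circles for replicate 1, squares for replicate 2 and colours for the position class. Around Chd2 the squares rise to 15.5 at 76.6 kb and the circles to 9.56 at Chaserr, and around Ptma the highest circle, 9.12, is at the gene end.

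Further intervals in both lists lay more than 3 kb from any gene end. Inside Gm32659, an interval 34581 bp from Snap25, which encodes a SNARE protein of vesicle release, had 6.78 (4.32 to 10.2) and 7.52 (5.19 to 10.6). An interval 63849 bp from Ppara, the fatty acid receptor, had 8.01 (5.30 to 11.7) and 4.80 (3.22 to 6.90), and one 21294 bp from Tcf12, a bHLH factor, had 6.16 and 4.46. Genes beside intervals are named by position alone, and no link between interval and gene was measured. Over the 262 intervals the nearest protein-coding gene was a median of 22963 bp away, with 69 between 3 and 10 kb, 125 between 10 and 50 kb, 61 between 50 and 200 kb and 7 beyond. Where the promoter table gave the gene's strand, 86 lay upstream and 106 downstream, and for the other 70 it was not in the table. Intervals in both lists had 32 upstream and 29 downstream, and those of replicate 1 only 12 and 11. Those of replicate 2 only had 42 upstream and 66 downstream, and the differences were not tested.

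Peaks of a single list had a median fold of 4.01 in replicate 1 and 4.11 in replicate 2. The best of replicate 2 only by p was chr3:5860369-5860809, with a fold of 4.27 at a background of 22.9. After it came Gm16897 at 9.17 (6.56 to 12.5), 4930481A15Rik at 7.97 (5.62 to 11.0), an interval 12733 bp from Armc12 at 8.66 and 1700063D05Rik at 7.04 (5.01 to 9.63). Intervals beside Zfp395 (7.32), inside Gm11266 near Nfib (7.35), and at Gm32652 (7.13) and C030034I22Rik (6.04) closed the leading 10 with n-TNgtt14. In replicate 1 only, after Gm20583, the leading intervals were beside Sorl1 (5.23) and Ogfrl1 (5.18). Folds of 4.62 followed beside Anapc16 and Gli3 and at 2900076A07Rik and 1700086P04Rik, with 4.37 at 4930412C18Rik, 4.32 at Gm18763 and 2.77 at chr9:3000323-3000576. These folds stand on at most 38 reads in replicate 2 apart from chr3:5860369-5860809, and on 13 to 33 in replicate 1. Tunar, a lncRNA of neural differentiation, was in replicate 2 only at 5.76 (3.63 to 8.75).

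A background at least 3 times the list's median was rare over all peaks. It was met by 7 of 3941 in replicate 1 (0.178%) and 5 of 6401 in replicate 2 (0.0781%). Outside peaks were many of these: without them, outside peaks fell from 112 to 108 in replicate 1 and from 234 to 232 in replicate 2. Such a background was met by 3 of the 262 intervals: Rn18s-rs5, chr3:5860369-5860809 and chr9:3000323-3000576, the last at the start of its chromosome's assembled sequence. Further down, the highest backgrounds were at B930059L03Rik (2.5 times the median in replicate 2), beside Hsd17b12 (2.38) and at Gm10433 (2.29 in replicate 1). Intervals beside Pdpr and Tex44 were at 2 times the median in replicate 2, and the pair upstream of Ptma at 1.88.

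The intervals were spread over the assembled chromosomes other than Y, from 11 of 525 on chromosome 7 to 17 of 299 on chromosome 15. Of the 262, 203 had no other within 100 kb, 46 were in pairs and 13 in larger groups. At the 3 kb limit, the members nearest to it were beside Rpl12 (3041 bp, folds 4.37 and 4.17) and Mef2d (3048 bp, 4.0 in replicate 2). The intervals just below it, left out, were beside Rab6b (2972 bp, 3.83), Mos (2929 bp, 4.90) and Spocd1 (2927 bp, 3.92), all in replicate 2 only.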

How the data were processed

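The values analysed were peak and summit lists of both RUVBL2 ChIP libraries, called per library. Per the submitters' processing notes, the build was GRCm38 and the tools were MACS2 2.1.0, Bowtie2 2.3.4.1, Trimmomatic 0.33, ChIPseeker and bcl2fastq 2.17. Their settings, and the control used in calling peaks, were not given in these sources. The deposited lists give each peak a fold enrichment over background, a −log10 p and a −log10 q by the authors' peak caller, and a score that the authors' list holds as 10 times the −log10 q, shortened to a whole number. Folds describe and −log10 p ranks peaks within a list only. Replicate 2 is titled Hyp2 but its peaks are named Hyp3, and the list was taken by its sample.

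Library depth was unknown. Summit pileups and backgrounds were recovered from fold and −log10 p, with whole pileups for 100% of peaks in both lists within a tolerance of 0.0001, and the step was tested on simulated data (1991 peaks, 100% exact). Fold intervals are exact Poisson intervals of the pileup at a fixed background, and shares carry exact Clopper-Pearson intervals. Both cover counting error within a list only, and not the spread between libraries. Reads were amplified and the labels name no molecular identifiers, so pileups may hold amplified copies, which the Poisson intervals do not cover.

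Genes were 49603 rows of a RefSeq GRCm38.p6 table, 21779 of them protein-coding, and 340 rows inside the first 3 Mb of a chromosome were left out as lying in a gap. The table has both ends of a gene but no strand or exons, so exons, introns and UTRs were not assigned. Strand and sequence came from a RefSeq promoter table, in which 9533 of 12639 lncRNA genes matched; promoters of chromosome 18 were not used here. No genome sequence was used here, so intervals themselves have none.

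No test was made, since the lists are of ChIP libraries only and the input libraries' values were not analysed here. Results are counts, medians and intervals. Named were the 20 best intervals of both lists by the worse rank, the 10 best of each single list, list genes with an interval, the 10 highest backgrounds and the 3 on each side of the limit, of which 1 is not reported here. Other genes were chosen after their values were seen. Members and lists were chosen with earlier results of these data known. Alternatives changed the p limit, the distances, the overlap, high backgrounds, pseudogenes and the replicate. Tools were Python 3.11.15, pandas 2.3.3, numpy 2.4.6, scipy 1.17.1 and matplotlib 3.10.9.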

Additional observations from a re-analysis of the deposited data

How the results depend on the processing

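Of 90 alternative values, 71 moved by less than the interval or 1.5-fold range of their result and 19 moved by more. With −log10 q of at least 5, the intervals numbered 130 (38 in both lists, 8 in replicate 1 only, 84 in replicate 2 only), their share was 2.72%, the share of those in both lists at a non-coding gene was 78.9% and the share of replicate 1 found again was 83.3%. Over the settings that leave out a replicate, the number ran from 111 (without replicate 2) to 234 and the share from 2.82% to 3.66%. With the limit to protein-coding genes at 1 kb the share was 4.44%, and at 10 kb it was 2.69%. With the limit to non-coding ends at 1 kb, the share at a non-coding gene was 44.7%. At 10 kb it was 71.0%, and 80.2% for intervals in both lists, and with lncRNA genes alone it was 45.4%. With summits within 250 bp required, 59.8% of replicate 1 and 28.6% of replicate 2 were found again, and among the top 1000 peaks of each list 82.1% and 60.0%. The causes of these moves were not tested, except that stricter limits hold fewer peaks. Single peaks rested on few reads, with medians for outside peaks of 15.5 in replicate 1 and 19 in replicate 2. The medians over all peaks were 16 and 22 reads, and the part of library depth in this was not tested. No paired analysis was possible because the results come from no test, and no values of the input libraries, which carry the same replicate numbers as the ChIP libraries, were analysed here.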
